A study of Rattus norvegicus with 3 samples.

Results

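miR-132 and miR-212 are a pair of microRNAs that lie side by side in the genome and are cut from a shared primary transcript. Each hairpin yields a 5p and a 3p mature strand, so the cluster has 4 members, rno-miR-132-3p, rno-miR-132-5p, rno-miR-212-3p and rno-miR-212-5p. They were chosen by name, as every row that is named for a member once any suffix is dropped. The files held 1 row for each, 4 of the 1480 rows in each library, and the 4 names were among 935 miRNA names, 509 of them rat-named. No row with another species prefix was named for either miRNA. The member rows held whole counts in all 3 libraries, to a tolerance of 1e-06, so no fractional sharing of reads with other rows was visible in them.

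The cluster is known as a target of the transcription factor CREB. In neurons it is induced by activity and by BDNF, and miR-132 promotes dendrite growth. In human and mouse immune cells it is induced by inflammatory stimuli, and miR-132 represses acetylcholinesterase and the transcriptional co-activator p300. The labels name no CREB measurement, and the libraries hold small RNA alone, so the name of the cluster as CREB-responsive rests on that background.

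The libraries came from primary astrocytes of neonatal wild-type rats, per the labels, and the small RNA was that of their extracellular vesicles (EVs), the membrane-bound particles shed into culture medium. From day 6 the cultures received, for 24 h, IL-4 with complement C1q, or IL-1α and TNF-α with C1q, or no treatment. C1q is thus common to both treated cultures and absent from the untreated one. IL-4 is a cytokine linked to alternative activation, and IL-1α, TNF-α and C1q together are a standard way to make astrocytes inflammatory and reactive. There was 1 library for each condition, all in a single batch per the labels, but the protocol also mentions harvesting the astrocytes themselves for RNA, so it is not certain that the RNA was vesicular.

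The mature sequences, from RefSeq with its GRCr8 assembly, show what the members share. They are given 5′ to 3′ with the seed, bases 2 to 8, in capitals, since the seed sets which messenger RNAs a miRNA can pair with. All 4 members had an entry.
rno-miR-132-3p: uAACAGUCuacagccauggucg
rno-miR-212-3p: uAACAGUCuccagucacggcca
rno-miR-132-5p: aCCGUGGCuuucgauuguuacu
rno-miR-212-5p: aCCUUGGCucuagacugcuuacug

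The 3p strands of miR-132 and miR-212 have the same seed, AACAGUC, and among the mature rat miRNAs in the RefSeq table these 2 alone carried it. They were identical over their first 9 bases and at 17 of 22 bases in all. Counted from the 5′ end, with the base of miR-132-3p first, the differences were A10C, C14U, U17C, U20C and G22A. The 5p strands matched at 14 of the 22 bases compared, and 1 of their 8 differences, G4U, lay in the seed. Each 5p seed was carried by no other rat entry.

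All 4 members lie on the plus strand of rat chromosome 10 in GRCr8. miR-212-5p is at chr10:60521771-60521794 and miR-212-3p at chr10:60521811-60521832. miR-132-5p follows at chr10:60522055-60522076 and miR-132-3p at chr10:60522091-60522112. The build behind the deposited counts is not given in the sources used here, and these positions are those of the RefSeq entries. In the annotation the neighbours are Hic1, a transcriptional repressor gene, on the miR-212 side, and the lncRNA LOC120095261 followed by Ovca2 and Dph1 on the miR-132 side. Neighbours were ordered by start position alone, and whether either hairpin overlaps another annotated gene was not checked.

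The RefSeq promoter window of that lncRNA (GRCr8, plus strand, chr10:60521892-60522191) spans most of the gap between the hairpins and the whole of the miR-132 hairpin. It is shown because it holds the palindromic cAMP response element TGACGTCA, the site that CREB binds. The first run of capitals is that element and the later runs are miR-132-5p and miR-132-3p as DNA.
LOC120095261 window: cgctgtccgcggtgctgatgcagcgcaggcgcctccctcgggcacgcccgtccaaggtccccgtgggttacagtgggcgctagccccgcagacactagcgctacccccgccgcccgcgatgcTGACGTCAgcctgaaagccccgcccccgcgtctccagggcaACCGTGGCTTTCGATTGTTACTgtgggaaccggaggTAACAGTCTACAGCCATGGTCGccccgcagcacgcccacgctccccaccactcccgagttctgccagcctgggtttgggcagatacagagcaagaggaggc

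The element lies 11 bases before the annotated start of the miR-132 hairpin, which runs from 60522033 to 60522133. Because TGACGTCA reads the same on both strands, 1 search covers both. It was found in 612 of 33465 distinct rat promoter windows of 300 bases, or 1.83%. The shorter half-element TGACG, which overlaps it, was found on either strand in 21.2% of the windows. A match describes the letters in the window and is no measurement of binding.

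The libraries held 7779718 (IL-4/C1q), 12327301 (IL-1α/TNF-α/C1q) and 6318839 (untreated) miRNA counts, so 1 count was worth 0.129, 0.0811 and 0.158 CPM (counts after each library is scaled to sum to 1000000). Intervals are exact 95% intervals that cover counting error alone, and PCR copies are not independent molecules. With 1 library per condition there is no replicate check and no p-value, so each ratio compares libraries rather than conditions. Astrocyte-enriched miRNAs were abundant, with 9 of 9 listed markers above 0 in every library and a summed level of 534761, 495103 and 498266 CPM in the IL-4/C1q, IL-1α/TNF-α/C1q and untreated libraries. Most of that sum was miR-21-5p, a widely expressed miRNA, with 386922, 365214 and 357921 CPM, and other members moved in opposite directions, such as miR-143-3p, with 49047, 30577 and 12140 CPM, and miR-449a-5p, with 49.5, 41.6 and 145 CPM. The untreated library stood apart in 5 epithelial markers, which summed to 27.4 CPM (IL-4/C1q), 27.7 CPM (IL-1α/TNF-α/C1q) and 3189 CPM (untreated), and in 5 erythrocyte and serum markers, which summed to 1386, 1054 and 8847 CPM. In each of these lists 1 member was at 0 with IL-1α/TNF-α/C1q, and in the epithelial list 1 was at 0 in the IL-4/C1q library too. Of 10 neuron markers 8 were in the files, with a summed level of 5937, 6210 and 9164 CPM in the same order of libraries and members that moved both ways. The defining neuronal miR-124-3p had 27.4, 24.9 and 97.5 CPM, while miR-7a-5p had 976, 1027 and 536 CPM. The 5p strand of miR-124 was at 0 in the IL-4/C1q library.

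Across the 3 libraries miR-132-3p was by far the most abundant member, and its level differed little. It had 5409 counts in the IL-4/C1q library, 9026 with IL-1α/TNF-α/C1q and 3930 in the untreated library. As a level this was 695 CPM with IL-4/C1q (677 to 714), 732 CPM with IL-1α/TNF-α/C1q (717 to 747) and 622 CPM in the untreated library (603 to 642). The 3 counting intervals did not overlap, with the IL-1α/TNF-α/C1q library highest and the untreated library lowest, yet the highest level was 1.18 times the lowest. Among rat-named miRNAs it ranked 76 with IL-4/C1q, 75 with IL-1α/TNF-α/C1q and 78 in the untreated library. It made up 94.2%, 93.96% and 94.4% of all counts of the cluster in these libraries.

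miR-212-3p, with the same seed, was the second member by level. It had 193 counts with IL-4/C1q, 264 with IL-1α/TNF-α/C1q and 124 untreated, or 24.8 CPM (21.4 to 28.6), 21.4 CPM (18.9 to 24.2) and 19.6 CPM (16.3 to 23.4). The intervals of all 3 levels overlapped, and the highest and lowest libraries, IL-4/C1q and untreated, differed by little more than counting error. miR-212-5p came next, with 90 counts (IL-4/C1q), 204 counts (IL-1α/TNF-α/C1q) and 87 counts (untreated). Its levels were 11.6 CPM (9.30 to 14.2), 16.5 CPM (14.4 to 18.98) and 13.8 CPM (11.0 to 17.0) in that order. The IL-1α/TNF-α/C1q library was the highest, and the intervals of the treated libraries did not overlap while that of the untreated library overlapped both.

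miR-132-5p, the strand cut from the other side of the abundant miR-132-3p hairpin, was the rarest member and the one that varied most. It had 53 counts in the IL-4/C1q library, 112 with IL-1α/TNF-α/C1q and 21 in the untreated library. Its level was 6.81 CPM (5.10 to 8.91), 9.09 CPM (7.48 to 10.9) and 3.32 CPM (2.06 to 5.08) in these libraries. The untreated library was below both treated ones with no overlap of intervals, narrowly for IL-4/C1q, and the treated libraries overlapped each other. The highest level was 2.73 times the lowest, against 1.43 times for miR-212-5p and 1.26 times for miR-212-3p.

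**Figure D1:**
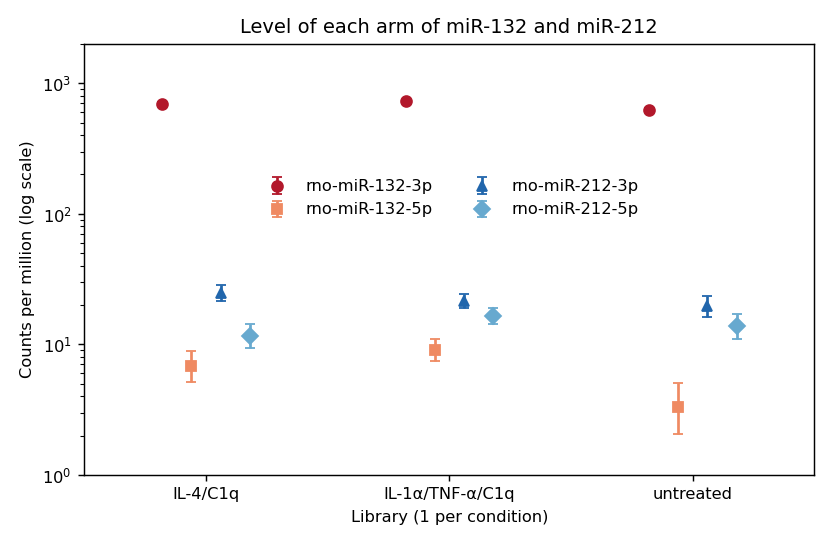
Level of each member in CPM (log axis) by library, with 1 library per condition and bars for the exact 95% counting interval. miR-132-3p sits between 622 and 732 CPM in all 3 libraries, while miR-132-5p is at 6.81 CPM (IL-4/C1q), 9.09 CPM (IL-1α/TNF-α/C1q) and 3.32 CPM (untreated).

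The 5p rows of both miRNAs carried a suffix, R-1 for miR-132-5p and R-2 for miR-212-5p, and the 3p rows carried none. In this style of naming such a suffix marks a read form that ends that many bases short of the database entry at its 3′ side; the files do not define it. A suffix of this kind alone stood on 111 of the 548 rat-named rows. Whether reads of other lengths were added to the row is not stated.

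The first comparison set the IL-1α/TNF-α/C1q library against the untreated one. Summed over the 4 members, the IL-1α/TNF-α/C1q library held 779 CPM, against 659 CPM in the untreated library, 1.18-fold higher (1.14 to 1.23). miR-132-3p was 1.18-fold higher (1.13 to 1.22), and it was not called by the size rule used here, which requires a ratio of 2-fold or more, 50 counts or more in the library where it is higher, and a counting interval that leaves out 1. miR-132-5p was 2.73-fold higher (1.70 to 4.59) and was the only member of the 4 past that rule. For the miR-212 strands the ratio was 1.09 for miR-212-3p (0.878 to 1.36) and 1.20 for miR-212-5p (0.931 to 1.56), and both intervals included 1.

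Of all 514 miRNAs with enough counts, 34.6% passed the same rule in this comparison, and 13.4% passed it as higher, so a single called member of 4 does not set the cluster apart from that background. The interval excluded 1 for 2 of the 4 members, against 83.1% of all tested miRNAs. Among 373 rat-named miRNAs tested, 22 had a higher ratio than miR-132-5p and 158 had a higher ratio than miR-132-3p. Of 75 tested rat-named miRNAs whose summed counts were within 2-fold of the 186 of miR-132-5p, 22.7% passed as higher and 42.7% passed in either direction. The median log2 ratio of the 4 members was 0.25, against -0.07 over all tested miRNAs and 0.04 over the rat-named ones. Of the 373 rat-named miRNAs tested, 27.3% passed the rule and 15% passed it as higher.

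The IL-4/C1q library was then set against the same untreated library. The cluster summed to 738 CPM with IL-4/C1q and 659 CPM in the untreated library, 1.12-fold higher (1.08 to 1.17). miR-132-3p was 1.12-fold higher (1.07 to 1.17), and miR-212-3p 1.26-fold higher (1.004 to 1.60), an interval whose lower end lay next to 1. miR-132-5p was 2.05-fold higher (1.22 to 3.58), just past the 2-fold limit and the 50-count minimum with its 53 counts. With 1 CPM added to each level that ratio was 1.81, under the limit. miR-212-5p was the only member with a ratio below 1, at 0.840 (0.619 to 1.14), and its interval included 1.

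Again 1 of the 4 members passed the size rule, miR-132-5p, where 36.6% of 489 tested miRNAs did and 13.1% passed as higher. The interval excluded 1 for 3 of the 4 members, against 84.9% of all tested miRNAs. Of 61 tested rat-named miRNAs of similar abundance to miR-132-5p, 29.5% passed as higher and 57.4% in either direction. The median log2 ratio of the members was 0.25, against -0.17 over all tested miRNAs and -0.04 over the rat-named ones. Of the 358 rat-named miRNAs tested, 30.2% passed the rule and 15.4% passed it as higher. Both of these comparisons use the same untreated library, in which miR-132-5p rests on 21 counts, so the higher ratio in each is not independent of the other.

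The epithelial and the erythrocyte and serum miRNAs that stood high in the untreated library moved with these comparisons. Some bovine-named rows were also high there, such as bta-miR-1246 with 3025 (IL-4/C1q), 3971 (IL-1α/TNF-α/C1q) and 15956.5 (untreated) counts. Others were not, such as bta-miR-378 with 323, 423 and 191. An alternative chosen after seeing the data left the epithelial, the erythrocyte and serum and all bovine-named rows out of the totals. The miR-132-5p ratio was then 2.69 for IL-1α/TNF-α/C1q and 2.02 for IL-4/C1q, and that of miR-132-3p was 1.16 and 1.10. Leaving rows out of the totals shifts every ratio of a comparison alike, here by -0.02 on the log2 scale in both. It cannot show whether the source of those rows also carried reads of the members. The part of those rows, or of the neuron markers, in the ratios was not tested. If the RNA was vesicular, a change in the share of vesicles that carry a miRNA and a change in its amount per vesicle cannot be told apart in bulk RNA.

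**Figure D2:**
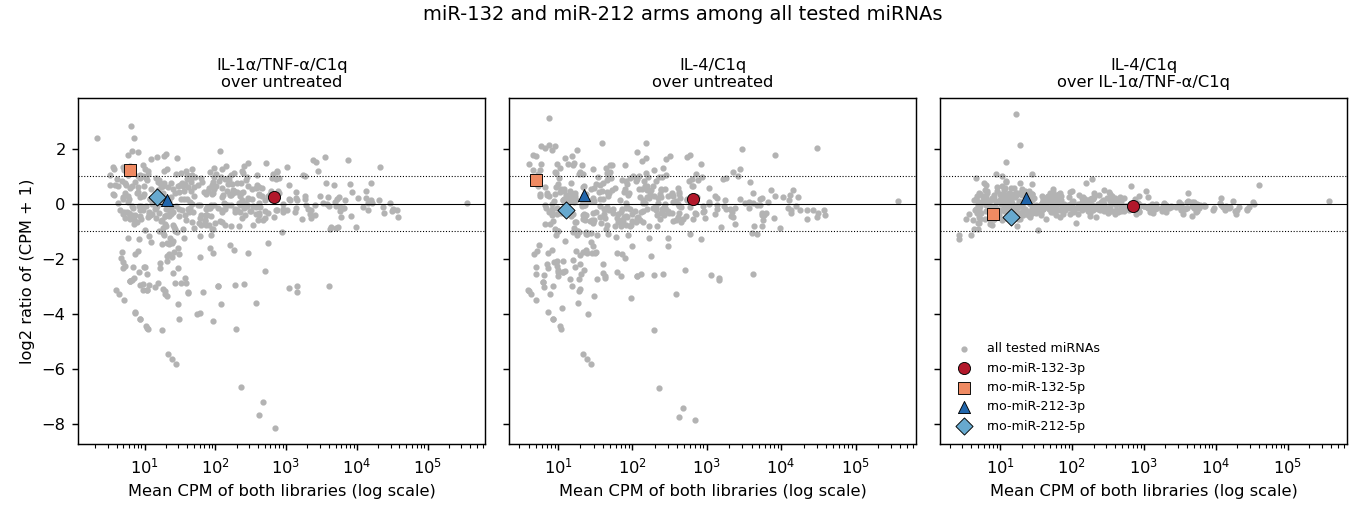
log2 ratio of CPM + 1 (vertical axis) against mean CPM of both libraries (log axis) for every miRNA that reaches 50 counts in either library, with the 4 members coloured and dotted lines at 2-fold. miR-132-3p lies near 0 in all 3 panels, and miR-132-5p lies highest of the members against the untreated library, with a ratio without the added 1 of 2.73 for IL-1α/TNF-α/C1q and 2.05 for IL-4/C1q.

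The third comparison set the treated libraries against each other. No member passed the size rule, and 2.57% of 467 tested miRNAs did. With IL-4/C1q the cluster summed to 738 CPM and with IL-1α/TNF-α/C1q to 779 CPM, a ratio of 0.948 (0.917 to 0.979). miR-132-3p had a ratio of 0.950 (0.918 to 0.982), which was 1.001 in the authors' normalized column, and miR-212-3p one of 1.16 (0.957 to 1.40).

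Of the 4 members 3 had a ratio below 1, and miR-212-5p had the lowest. It had 11.6 CPM with IL-4/C1q and 16.5 CPM with IL-1α/TNF-α/C1q, 1.43-fold lower (1.11 to 1.85). Among 359 rat-named miRNAs tested, 18 had a lower ratio than that. miR-132-5p had a ratio of 0.750, with an interval of 0.530 to 1.05 that included 1. The interval excluded 1 for 2 of the 4 members, miR-132-3p and miR-212-5p, and for 59.7% of all tested miRNAs.

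The balance of the arms can be read within a library, where the scaling of the library cancels. In miR-132 the 3p strand dominated everywhere. The 3p to 5p ratio of counts was 102 with IL-4/C1q (77.9 to 136), 80.6 with IL-1α/TNF-α/C1q (66.9 to 97.99) and 187 in the untreated library (122 to 303). The 5p strand was thus 0.970%, 1.23% and 0.532% of the miR-132 counts in these libraries, and the untreated library had the smallest 5p share.

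In miR-212 the arms were of the same order. The 3p to 5p ratio was 2.14 with IL-4/C1q (1.66 to 2.79), 1.29 with IL-1α/TNF-α/C1q (1.07 to 1.56) and 1.43 in the untreated library (1.07 to 1.90). The 3p strand made up 68.2%, 56.4% and 58.8% of the miR-212 counts, and here it was the IL-4/C1q library that stood highest, with an interval that did not overlap that of the IL-1α/TNF-α/C1q library. Levels of different strands also carry the sequence preference of adapter ligation, so a ratio between strands is compared between libraries and not taken as a molar ratio.

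Between libraries, the log2 of the miR-132 3p to 5p ratio was lower with IL-1α/TNF-α/C1q than in the untreated library, with a difference of -1.22 (exact conditional 95% interval -1.96 to -0.53). For IL-4/C1q against untreated the difference was -0.87 (-1.68 to -0.12). Among the other rat-named hairpins with at least 10 counts for each arm in both libraries, 15 of 103 differed as much or more in the first comparison and 17 of 97 in the second, in either direction. The quartiles of those hairpins were -0.35 and 0.37 in the first comparison and -0.37 and 0.38 in the second.

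For miR-212 the arm difference was -0.14 (-0.64 to 0.35) for IL-1α/TNF-α/C1q against untreated and 0.59 (0.03 to 1.15) for IL-4/C1q against untreated. Other hairpins differed as much or more in 83 of 103 and 29 of 97 cases. For IL-4/C1q against IL-1α/TNF-α/C1q the miR-212 difference was 0.73 (0.27 to 1.19). There, other hairpins had quartiles of -0.25 and 0.17, and 7 of 103 differed as much or more. The miR-132 difference in that comparison was 0.34 (-0.15 to 0.84), and its interval included 0. As much or more was seen in 33 of the 103. Of the 3 comparisons, the arm difference of miR-212 was largest between the treated libraries, and that of miR-132 between IL-1α/TNF-α/C1q and untreated.

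**Figure D3:**
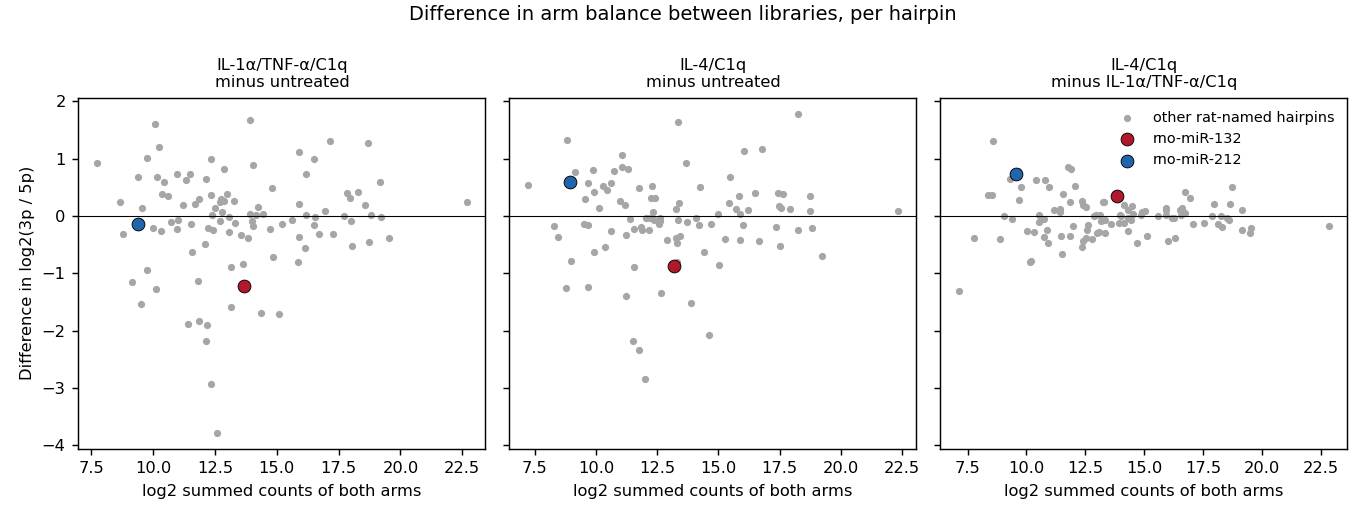
Difference between libraries in log2(3p / 5p) for each rat-named hairpin with at least 10 counts of each arm in both libraries, against the log2 summed counts of its arms. miR-132 lies at -1.22 and -0.87 in the comparisons with the untreated library, inside the cloud of other hairpins, and miR-212 lies at 0.73 between the treated libraries.

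The ratio of miR-132 to miR-212 was steady over the cluster as a whole. With both arms summed it was 19.3 with IL-4/C1q (17.1 to 21.8), 19.5 with IL-1α/TNF-α/C1q (17.8 to 21.5) and 18.7 in the untreated library (16.3 to 21.6). The log2 difference was 0.06 for IL-1α/TNF-α/C1q against untreated (-0.19 to 0.30) and 0.04 for IL-4/C1q against untreated (-0.23 to 0.31). A difference within these intervals was not detectable at this depth.

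The arms taken singly gave different pictures. Between the 3p strands that share a seed, the miR-132 to miR-212 ratio was 28.0 with IL-4/C1q (24.3 to 32.5), 34.2 with IL-1α/TNF-α/C1q (30.2 to 38.8) and 31.7 in the untreated library (26.5 to 38.2), with overlapping intervals. The log2 difference between the treated libraries was -0.29 for IL-4/C1q against IL-1α/TNF-α/C1q, with an interval of -0.56 to -0.0069 that ended just short of 0, and the intervals of both comparisons with the untreated library included 0. Between the 5p strands miR-212 was the higher one in every library. The miR-132 to miR-212 ratio of the 5p strands was 0.589 with IL-4/C1q (0.411 to 0.836), 0.549 with IL-1α/TNF-α/C1q (0.432 to 0.695) and 0.241 in the untreated library (0.142 to 0.392). The untreated value lay below both treated ones, with a log2 difference of 1.19 for IL-1α/TNF-α/C1q (0.39 to 2.02) and 1.29 for IL-4/C1q (0.39 to 2.21).

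**Figure D4:**
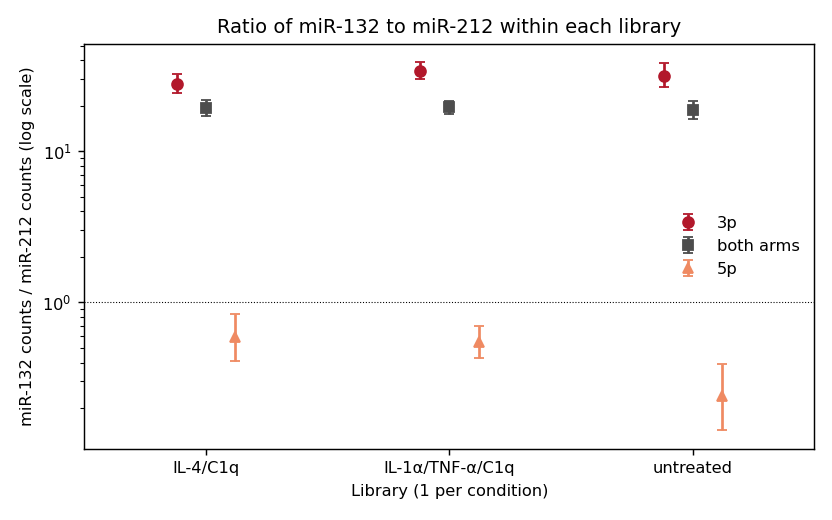
Ratio of miR-132 to miR-212 counts within each library (log axis) for the 3p strands, the 5p strands and both arms together, with exact 95% intervals. Both arms together stay between 18.7 and 19.5, while the 5p ratio is 0.589 (IL-4/C1q), 0.549 (IL-1α/TNF-α/C1q) and 0.241 (untreated).

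Other miRNAs with the pattern of the cluster were ranked by the distance between their pairs of log2 ratios (CPM + 1) to the untreated library, over 332 rat-named miRNAs with at least 200 summed counts. The pattern spans only 3 libraries, and many miRNAs lie near it. The nearest to miR-132-3p were miR-7a-1-3p, miR-125a-5p and let-7c-1-3p, at distances of 0.011, 0.025 and 0.039 log2 units. miR-125a-5p had 13587 CPM with IL-4/C1q, 14269 CPM with IL-1α/TNF-α/C1q and 12291 CPM untreated. In the same libraries miR-7a-1-3p had 12.7, 13.3 and 11.2 CPM and let-7c-1-3p 16.3, 17.9 and 14.9 CPM. At levels that low, counting error is wider than these distances. For the summed cluster the nearest were miR-7a-1-3p, miR-125a-5p and miR-140-3p.

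Other miRNAs known to be regulated by neuronal activity, by MEF2 or by CREB were listed for comparison, and 11 of 11 were in the files. After IL-1α/TNF-α/C1q 3 were higher past the size rule, 1 was lower and 7 were not past it, where 13.4% of all tested miRNAs were higher and 21.2% lower. After IL-4/C1q 5 were higher, 1 was lower and 5 were not past it, where 13.1% of all tested miRNAs were higher and 23.5% lower. Rat-named miRNAs alone had 15% higher and 12.3% lower after IL-1α/TNF-α/C1q, and 15.4% higher and 14.8% lower after IL-4/C1q. In the IL-4/C1q comparison 10 of the 11 listed miRNAs had enough counts. The higher ones in both were miR-134-5p, which limits dendritic spine size, miR-329-3p and miR-381-3p, all from the MEF2-driven miR-379 to miR-410 cluster. miR-134-5p had 229 CPM with IL-4/C1q, 176 CPM with IL-1α/TNF-α/C1q and 72.3 CPM untreated, 3.17-fold (2.86 to 3.52) and 2.43-fold (2.20 to 2.69) higher than untreated. miR-381-3p had 499, 421 and 150.1 CPM in the same libraries, and miR-329-3p 8.998, 7.63 and 2.69 CPM.

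With IL-4/C1q, miR-379-5p of the same cluster and miR-184 passed too, 2.67-fold (2.33 to 3.07) and 2.31-fold (1.77 to 3.04) higher. The lower member was miR-124-3p, the neuronal miRNA, 3.56-fold lower (3.04 to 4.18) with IL-4/C1q and 3.91-fold lower (3.41 to 4.50) with IL-1α/TNF-α/C1q. The most abundant members were miR-9a-5p, with 33903, 32150 and 44643 CPM in the IL-4/C1q, IL-1α/TNF-α/C1q and untreated libraries, miR-381-3p and miR-34a-5p, with 156, 159 and 276 CPM. The list median log2 ratio (CPM + 1) was 0.65 for IL-1α/TNF-α/C1q and 0.36 for IL-4/C1q, against -0.21 and -0.28 over 762 miRNAs with at least 10 summed counts. Those 762 include names with other species prefixes. Over the rat-named miRNAs tested, without the added 1 CPM, the medians were 0.04 and -0.04. Several listed miRNAs share a single cluster, and the list was chosen with earlier results of these data known. The contrast is thus a description only. Between the treatments 0 of the 11 passed.

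Of 12 miRNAs listed as NF-kB and cytokine responsive, 11 were in the files. After IL-1α/TNF-α/C1q 0 were higher and 2 were lower, the epithelial miR-203a-3p and miR-147, and after IL-4/C1q 0 were higher and 3 were lower, those and miR-146a-5p, which restrains NF-kB signalling by targeting its adaptors. Of all tested miRNAs 21.2% and 23.5% were lower, and of the rat-named ones tested 12.3% and 14.8%. The called members were too few to set the list apart from either background. miR-155-5p, an inflammation-induced miRNA of macrophages and other cells that was chosen after its values were seen, had 389 CPM with IL-4/C1q, 477 CPM with IL-1α/TNF-α/C1q and 298 CPM untreated. Its ratio for IL-1α/TNF-α/C1q against untreated was 1.60 (1.52 to 1.68), where miR-132-3p had 1.18. The most abundant, miR-21-5p, miR-9a-5p and miR-125b-5p, had ratios of 1.02, 0.720 and 0.853 in that comparison and 1.08, 0.759 and 0.852 for IL-4/C1q. The list medians were -0.06 for IL-1α/TNF-α/C1q and -0.23 for IL-4/C1q, against -0.21 and -0.28 over all 762 miRNAs. Over the rat-named miRNAs tested, without the added 1 CPM, the medians were 0.04 and -0.04. The list thus lay above the mixed set of names and below the rat-named one. Between the treatments miR-147 alone passed, 2.16-fold lower (1.35 to 3.55) with IL-4/C1q.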

How the data were processed

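Per the labels, small RNA libraries of 3 conditions, 1 each, were sequenced on an Illumina instrument; none of the sources used here gives the aligner, counter, miRNA database or build. Each file held a column of estimated counts, called raw per the file headers, and a column of scaled signal, which the authors made by multiplying those counts by a constant per library (1.14 for IL-4/C1q, 0.684 for IL-1α/TNF-α/C1q, 1.25 for untreated). The rule behind the constant is not stated, and the signal served only as an alternative scaling. Predicted candidates (372 rows, 0.034% to 0.066% of the counts) were left out. Rows of a name were summed, with substitution-tagged rows kept apart where a plain row existed. Counts were scaled to CPM. Ratios have exact conditional binomial intervals and level intervals are exact Poisson; arm differences use the exact conditional odds ratio. Estimated counts were rounded for intervals and scaling factors. The rule was run on simulated counts with counting error alone and with changes well above 2-fold. Its behaviour near 2-fold, or under variation between replicate libraries, was not checked. Software was Python 3.11.15, scipy 1.17.1, edgeR 4.0.16 (TMM) and DESeq2 1.42.0 (size factors), the last 2 for scaling only.

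Named miRNAs are the 4 members, the 3 nearest in pattern, and of the activity and the NF-kB lists up to 3 by mean CPM and those past the size rule. Named outside this rule, after their values were seen, were miR-155-5p and the single markers miR-124-3p, miR-124-5p, miR-7a-5p, miR-143-3p and miR-449a-5p. The bovine-named bta-miR-1246 and bta-miR-378 were chosen in the same way. The other marker lists, at their summed CPM in the IL-4/C1q, IL-1α/TNF-α/C1q and untreated libraries, were oligodendrocyte (146, 169.9 and 234), microglia and leukocyte (203, 219 and 163) and endothelial (48.3, 34.9 and 68.5). Members and lists were chosen with earlier results of these data known.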

Additional observations from a re-analysis of the deposited data

How the results depend on the processing

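The summed cluster moved past its narrow counting interval with the scaling, in the same direction as in the main comparison in each case. For IL-1α/TNF-α/C1q against untreated its ratio was 1.24 with edgeR TMM factors, 1.29 with DESeq2 size factors and 1.26 with the authors' normalized column, against 1.18. For IL-4/C1q against untreated it was 1.22 with TMM, 1.27 with DESeq2, 1.17 without the most abundant miRNA in the total and 1.26 with the normalized column, against 1.12. For IL-4/C1q against IL-1α/TNF-α/C1q it was 0.982 with TMM, 0.985 with DESeq2, 0.981 without the most abundant miRNA and 0.999 with the normalized column, against 0.948. miR-132-3p alone moved across 1, to 1.001 in that comparison with the normalized column. These settings shift every ratio of a comparison alike, by up to 0.18 on the log2 scale for DESeq2 and IL-4/C1q against untreated.

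miR-132-5p was past the size rule in both comparisons with untreated under every scaling tried. With a minimum of 200 counts or of 4-fold, 0 members were past it in either. miR-132-5p itself fell short of both minimums, with 112 counts and a ratio of 2.73 for IL-1α/TNF-α/C1q and 53 counts and 2.05 for IL-4/C1q. With 1 CPM added to each level its ratio was 2.33 for IL-1α/TNF-α/C1q and 1.81 for IL-4/C1q, under the 2-fold limit, and with 10 CPM added it was 1.43 and 1.26, under it in both. Taking the highest row of a name, or adding rows of other species prefixes, left the arm balance as it was, since each member has 1 row. No paired analysis was possible because each condition has 1 library. Leaving out a library was likewise not possible. The 21 untreated counts of miR-132-5p limit every ratio that rests on them.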
